A study of Homo sapiens with 12 samples.

Results

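The tricarboxylic acid cycle enzymes described here were PDHA1, CS, IDH3A, IDH2, OGDH, SUCLA2, SUCLG1, FH and MDH2, chosen by gene symbol from the deposited table of read counts. They were 9 of the 28278 genes in that table, and all 9 were among the 15916 genes that passed a filter on low counts and were tested. The study removed UBQLN1, which encodes the ubiquitin shuttle factor ubiquilin 1, from the established hESC line WA26 with CRISPR/Cas9 and measured RNA from bulk cells by sequencing. The 4 groups, with 2 libraries each, were WT cells at normal O2, UBQLN1 knockout (KO) cells at normal O2, KO cells cultured at 5% O2, and KO cells treated with N-acetyl-L-cysteine (NAC), a membrane-permeable antioxidant and a source of cysteine. The labels give neither the dose of NAC nor the time in culture, and nothing in them says that libraries 1 and 2 of a group were separate cultures, although a legend of the paper calls the replicates biological. The paper also describes clones of each genotype without saying which clone went into which library. The p-values below therefore measure the spread between these libraries. Of 12 labelled samples, 4 treated WT samples (NAC, or 5% O2) are not analysed here.

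The WT libraries held 32591050 and 37650859 counts, the KO libraries 35019694 and 39349967, the KO libraries at 5% O2 41639350 and 32759193, and the KO libraries with NAC 40803323 and 31236968. Libraries 1 and 2 of a group differed by more than counting error, and chi-square divided by its degrees of freedom was 16.5 in WT, 9.32 in KO, 12.7 in KO at 5% O2 and 30.5 in KO with NAC. The largest disagreement was thus between the NAC libraries. Small counts were even more often than odd, and whether each count stands for an independent read was not tested, which limits the counts and this chi-square.

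The cells carried the markers of hESCs. All 9 markers examined (POU5F1, NANOG, SOX2, LIN28A, DPPA4, TDGF1, PODXL, DNMT3B and ZFP42) passed the filter, and their summed level was 7314 and 7373 CPM (counts scaled to library size) in WT, 7174 and 6943 CPM in KO, 6813 and 6720 CPM in KO at 5% O2, and 6821 and 6131 CPM in KO with NAC. DNMT3B, a de novo DNA methyltransferase, was the most abundant of them in every library except KO NAC library 1, where LIN28A, an RNA-binding protein, had 71935 counts and DNMT3B had 43541. Of 10 markers of cells that leave pluripotency, 6 passed the filter, and the summed level of the list lay between 15.8 and 29.4 CPM in all 8 libraries. KO NAC libraries 1 and 2 were the lowest and the highest. Against KO, the median log2 fold change of the tested markers with NAC was -0.69. It was -0.18 without KO NAC library 1 and -0.39 after removal of the GC and length trend described further on. MIXL1 had 26 and 34 counts with NAC, against 65 to 170 elsewhere. SOX17, an endoderm factor, had 0 counts in all 8 libraries. OTX2 was the most abundant gene of that list, with 294 to 544 counts.

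KO NAC library 1 stood apart from the other libraries in fibroblast and mesenchymal markers. Their summed level was 569 and 581 CPM in WT, 601 and 627 CPM in KO, 512 and 540 CPM in KO at 5% O2, and 936 and 547 CPM in KO with NAC. THY1, which hESCs also express, was the most abundant of the 8 markers, with 10784 to 18229 counts. The matrix proteins decorin and lumican were counted in KO NAC library 1 alone, with 1809 counts of DCN and 148 counts of LUM, and both genes had 0 counts in the other 7 libraries. COL3A1, a fibrillar collagen, had 1114 counts there, 8 in WT library 2 and 0 elsewhere. PDGFRB had 1062 counts there against 43 to 164 elsewhere, COL1A1 4056 against 961 to 3029, COL1A2 9390 against 3383 to 6307, and POSTN 56 against 0 to 27. All 8 markers were thus highest in KO NAC library 1. Because the samples were bulk cells, a different share of a cell type and a different amount of RNA per cell cannot be told apart. The part of these markers in the results with NAC was not tested, and the fold changes of named genes with NAC are given with and without this library.

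**Figure D1:**
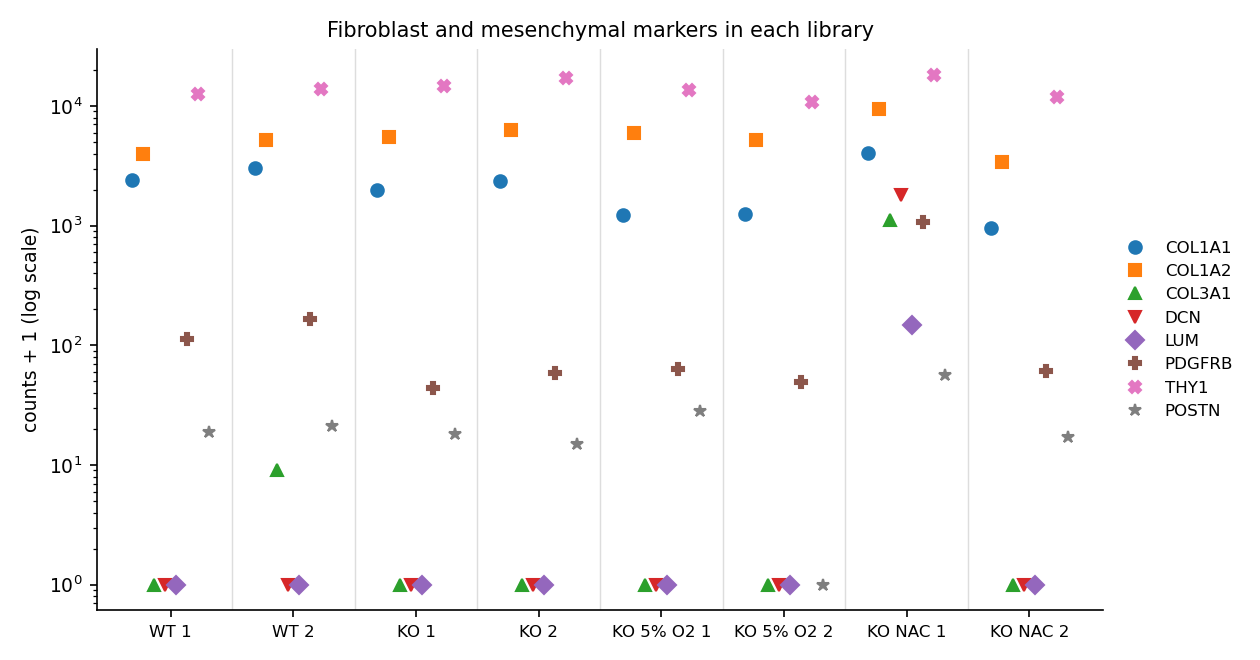
Counts of the 8 fibroblast and mesenchymal markers in each of the 8 libraries, plotted as counts plus 1 on a log scale. DCN, LUM and COL3A1 stand at 1809, 148 and 1114 counts in KO NAC library 1, while DCN and LUM are at 0 in every other library and COL3A1 is at 0 in all others but WT library 2, where it has 8 counts.

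UBQLN1 matched the genotype labels in every library. It had 7382 and 7591 counts in WT, 1559 and 1789 in KO, 2116 and 1530 in KO at 5% O2, and 2392 and 1476 in KO with NAC. All 6 KO libraries were far below both WT libraries, and the log2 fold change of KO against WT was -2.29 (SE 0.12, adjusted p = 2.5e-06). With NAC, UBQLN1 was higher than in untreated KO at a log2 fold change of 0.38 (SE 0.12, adjusted p = 0.0196), a call that was lost without KO NAC library 1 at 0.20 (adjusted p = 0.168) and after removal of a trend with GC content and length at 0.21 (adjusted p = 0.169).

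The tricarboxylic acid cycle runs in the mitochondrial matrix. It oxidises acetyl-CoA, made from pyruvate or fatty acids, to CO2, and hands the electrons as NADH and FADH2 to the respiratory chain. Its intermediates also leave the cycle for the synthesis of lipids, amino acids and haem, and alpha-ketoglutarate, succinate and fumarate act on the dioxygenases that demethylate histones and DNA. Pluripotent stem cells are known for a high rate of glycolysis and for drawing acetyl-CoA and alpha-ketoglutarate from mitochondria to keep their chromatin state.

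The 9 enzymes were all transcribed, at levels that differed between genes. On a scale per length, in CPM per kilobase of the canonical transcript (RPKM), MDH2 had the highest mean level at 186 ± 9.06 RPKM (SD, n = 8 libraries). CS followed at 88.1 ± 9.07, FH at 60.9 ± 11.4, SUCLG1 at 51.6 ± 11.7 and SUCLA2 at 50.5 ± 10.1 RPKM. OGDH was at 38.8 ± 5.48, PDHA1 at 31.5 ± 2.71, IDH2 at 25.4 ± 2.99 and IDH3A at 5.10 ± 0.67 RPKM. MDH2, at 170 RPKM or more in every library, lay above all other members, and IDH3A, at 6.03 RPKM or less, lay below them. Between these ends, from CS to IDH2, the ranges of neighbours in the order overlapped. FH was nonetheless above SUCLG1 in each of the 8 libraries, while every other pair of neighbours from CS to IDH2 changed places in at least 1 library.

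The sum of the 9 genes was 1371 and 1345 CPM in WT, 1239 and 1229 CPM in KO, 1260 and 1283 CPM in KO at 5% O2, and 1348 and 1305 CPM in KO with NAC. The KO libraries had the lowest sums and did not overlap with any other group, while the NAC libraries overlapped with WT. The mean sum was 1358 ± 18.5 CPM in WT, 1234 ± 7.74 in KO, 1272 ± 16.1 in KO at 5% O2 and 1327 ± 29.9 in KO with NAC (SD, n = 2 each). MDH2 and CS gave the largest parts of this sum, so it hides what the other enzymes did.

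PDHA1 and CS stand at the entry of the cycle. PDHA1, on chromosome X from 19343893 to 19361718 of hg38, encodes the catalytic alpha subunit of pyruvate dehydrogenase, which turns pyruvate into acetyl-CoA. It was at 109 and 111 CPM in WT, 108 and 99.7 CPM in KO, 111 and 114 CPM in KO at 5% O2, and 105 and 85.6 CPM in KO with NAC. PDHA1 varied little, its lowest library was KO NAC library 2, and the NAC group overlapped with KO. CS, citrate synthase, joins acetyl-CoA to oxaloacetate and lies on chromosome 12 from 56271699 to 56300391. It was at 296 and 263 CPM in WT, 272 and 266 CPM in KO, 252 and 268 CPM in KO at 5% O2, and 224 and 215 CPM in KO with NAC. Both NAC libraries lay below the other 6 libraries, while WT, KO and KO at 5% O2 overlapped.

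IDH3A, IDH2 and OGDH carry out the oxidative decarboxylations of the cycle. IDH3A, the catalytic subunit of the NAD-dependent isocitrate dehydrogenase, lies on chromosome 15 from 78131498 to 78171945. It was at 21.4 and 22.2 CPM in WT, 19.6 and 19.5 CPM in KO, 18.3 and 16.9 CPM in KO at 5% O2, and 24.6 and 24.02 CPM in KO with NAC. No groups overlapped, and the order from low to high was KO at 5% O2, KO, WT and KO with NAC. IDH2, the NADP-dependent mitochondrial enzyme that makes alpha-ketoglutarate from isocitrate and yields NADPH, lies on the same chromosome from 90083045 to 90102477. It was at 70.9 and 75.4 CPM in WT, 60.2 and 57.5 CPM in KO, 61.9 and 62.5 CPM in KO at 5% O2, and 76.7 and 76.0 CPM in KO with NAC. KO and KO at 5% O2 were low, and WT and KO with NAC were high, with no overlap between groups. OGDH, the E1 subunit of the alpha-ketoglutarate dehydrogenase complex, lies on chromosome 7 from 44606572 to 44709066. It was at 188 and 180 CPM in WT, 185 and 178 CPM in KO, 144 and 157 CPM in KO at 5% O2, and 128 and 141 CPM in KO with NAC. WT and KO overlapped, and both treated groups lay below them, with the NAC libraries lowest.

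SUCLA2 and SUCLG1 encode subunits of succinyl-CoA synthetase, which makes succinate and a nucleoside triphosphate, SUCLG1 being the alpha subunit that all forms of the enzyme share and SUCLA2 the beta subunit of the ATP-forming enzyme. SUCLA2, on chromosome 13, was at 111 and 105 CPM in WT, 89.6 and 81.2 CPM in KO, 102 and 95.9 CPM in KO at 5% O2, and 150 and 120 CPM in KO with NAC. The KO libraries were lowest and the NAC libraries highest with no overlap between groups, and the NAC libraries differed from each other more than those of any other group. SUCLG1, on chromosome 2 from 84423528 to 84460045, was at 54.7 and 62.2 CPM in WT, 50.8 and 52.8 CPM in KO, 68.5 and 59.9 CPM in KO at 5% O2, and 83.3 and 91.7 CPM in KO with NAC. KO was again lowest and NAC highest, and WT overlapped with KO at 5% O2.

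FH and MDH2 close the cycle. FH, fumarase, hydrates fumarate to malate and lies on chromosome 1 from 241497511 to 241519799. It was at 104 CPM in both WT libraries, 87.4 and 88.1 CPM in KO, 112 and 100 CPM in KO at 5% O2, and 131 and 146 CPM in KO with NAC. FH had the same order as SUCLG1, with KO lowest, NAC highest, and WT inside the range of KO at 5% O2. MDH2, the mitochondrial malate dehydrogenase that regenerates oxaloacetate, lies on chromosome 7 from 76048051 to 76067508. It was at 416 and 423 CPM in WT, 368 and 387 CPM in KO, 392 and 409 CPM in KO at 5% O2, and 424 and 407 CPM in KO with NAC. The KO libraries were lowest, and KO with NAC overlapped with WT and with KO at 5% O2.

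**Figure D2:**
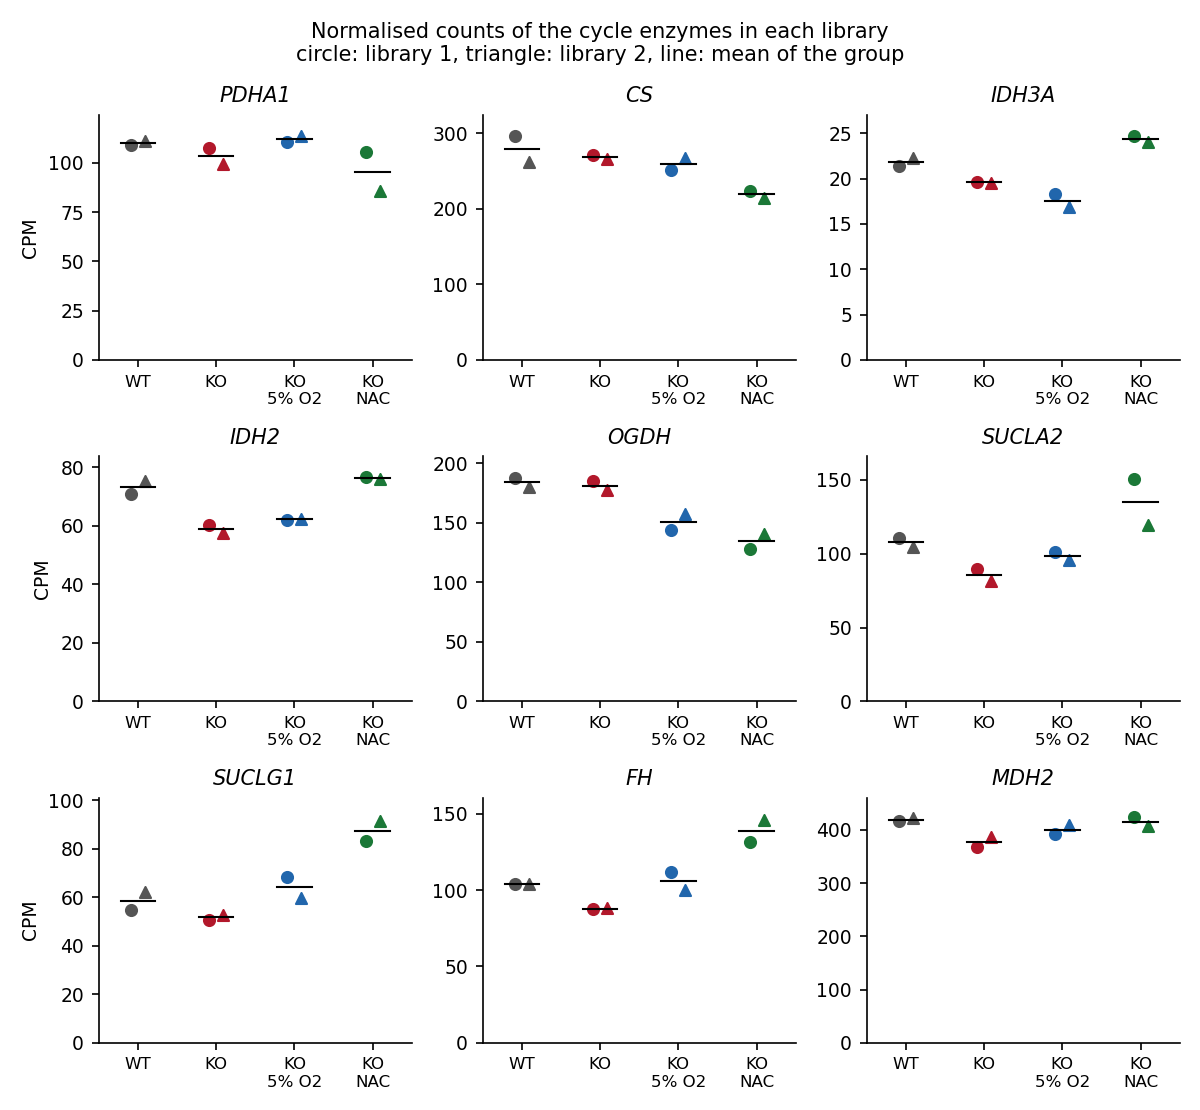
Normalised counts (CPM) of the 9 enzymes in the 4 groups, with library 1 as a circle, library 2 as a triangle and the mean of the group as a line. SUCLA2, SUCLG1 and FH are highest with NAC, reaching 150, 91.7 and 146 CPM, while CS and OGDH are lowest with NAC, at 215 and 128 CPM.

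The promoters shown are those of SUCLG1, FH, SUCLA2 and CS. These genes were called with NAC with all libraries in the fit, the 3 former upwards and CS downwards. IDH2, IDH3A and OGDH were also called and are not shown. After removal of the GC and length trend described further on, FH was at 0.16 and SUCLA2 at -0.095, both without a call. The windows are those of RefSeq on GRCh38.p14, with 300 bases each, and begin transcription at the start of the GENCODE canonical transcript. They are chr2:84459231-84459530 for SUCLG1, chr1:241519706-241520005 for FH, chr13:48001224-48001523 for SUCLA2 and chr12:56300281-56300580 for CS, all on the minus strand and printed 5′ to 3′ along the gene. Capitals mark every match, on either strand, to the motif letters searched.
SUCLG1: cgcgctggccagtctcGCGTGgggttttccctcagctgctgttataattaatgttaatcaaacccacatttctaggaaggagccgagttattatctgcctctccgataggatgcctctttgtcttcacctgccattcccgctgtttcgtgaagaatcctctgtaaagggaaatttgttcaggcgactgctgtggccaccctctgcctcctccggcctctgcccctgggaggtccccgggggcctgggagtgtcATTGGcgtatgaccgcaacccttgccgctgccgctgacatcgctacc
FH: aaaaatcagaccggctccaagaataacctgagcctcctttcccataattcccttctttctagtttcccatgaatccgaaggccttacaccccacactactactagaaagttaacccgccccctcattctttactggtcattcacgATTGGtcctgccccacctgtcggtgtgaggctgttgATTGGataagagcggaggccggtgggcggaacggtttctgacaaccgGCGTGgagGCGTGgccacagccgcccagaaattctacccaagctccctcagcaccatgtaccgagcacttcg
SUCLA2: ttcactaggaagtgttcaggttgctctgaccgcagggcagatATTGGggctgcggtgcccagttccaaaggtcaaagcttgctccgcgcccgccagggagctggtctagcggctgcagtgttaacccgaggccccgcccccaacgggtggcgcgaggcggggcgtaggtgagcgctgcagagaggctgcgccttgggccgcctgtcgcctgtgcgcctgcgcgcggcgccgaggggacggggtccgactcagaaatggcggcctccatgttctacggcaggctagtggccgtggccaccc
CS: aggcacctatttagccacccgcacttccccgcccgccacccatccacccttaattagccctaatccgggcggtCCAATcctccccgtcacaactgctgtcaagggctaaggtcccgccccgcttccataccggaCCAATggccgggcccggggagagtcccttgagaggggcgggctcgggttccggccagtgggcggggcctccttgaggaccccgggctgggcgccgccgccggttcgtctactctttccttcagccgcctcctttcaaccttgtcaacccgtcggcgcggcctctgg
The letters searched on both strands were GCATGCGC for NRF1, CCGGAAGT for GABP, TCAAGGTCA for the estrogen-related receptors, CCAAT for NF-Y, and ACGTG and GCGTG for hypoxia-inducible factors, chosen after the values had been seen, and no base belonged to 2 motifs. SUCLG1 held 1 GCGTG and 1 CCAAT, FH held 2 of each, SUCLA2 held 1 CCAAT and CS held 2. CCAAT occurs in 34.6% of all 35116 promoters of this length, GCGTG in 36.5% and ACGTG in 21.4%. The longer letters are rarer, at 3.05% of promoters for NRF1, 4.14% for GABP and 0.353% for the estrogen-related receptors. RefSeq windows were matched for 8 of the 9 members, all but OGDH, and of these 5 held CCAAT, 5 held GCGTG and 1, MDH2, held the GABP letters. The window of IDH2, 1 of those with GCGTG, lay 1847 bases from the start of the canonical transcript. A match describes the letters in the window and not a site that was bound.

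No enzyme passed the test in KO against WT, although all 9 values were below 0, beside 8028 of the 15916 tested genes. The question of this comparison is what the KO changed at normal O2. By edgeR, at an adjusted p under 0.05, 0 of 9 members were higher in KO, where 1.34% of all tested genes were, and 0 were lower, where 0.622% were. At an unadjusted p under 0.05, 0 members were higher and 3 were lower, beside 1512 and 1292 of the 15916 tested genes. DESeq2 called 0 members higher and 1 lower, beside 841 genes in both directions together. SUCLA2 had a log2 fold change of -0.33 (SE 0.11, adjusted p = 0.149), IDH2 of -0.31 (SE 0.09, adjusted p = 0.0961) and FH of -0.24 (SE 0.09, adjusted p = 0.199). The other values were -0.18 for SUCLG1, -0.16 for IDH3A, -0.15 for MDH2, -0.087 for PDHA1, -0.057 for CS and -0.021 for OGDH. With all libraries in the fit, the median was -0.16 beside -0.0024 over all tested genes. CS and OGDH turned to 0.034 and 0.0096 without WT library 1, and OGDH to 0.0081 without KO library 2.

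The calls in KO depended on settings. IDH2 was lower by DESeq2 (adjusted p = 0.0330) and in edgeR without KO NAC library 1 (0.0354) or 2 (0.0359), with adjusted p from 0.0330 to 0.445 over 16 alternatives. SUCLA2 was lower with no filter on low counts (adjusted p = 0.0344), with only the 4 libraries compared (0.0397) and without KO NAC library 1 (0.0270) or 2 (0.0277), with adjusted p from 0.0270 to 0.564. After removal of the GC and length trend described further on, SUCLA2, FH and SUCLG1 were nearer 0, at -0.17, -0.13 and -0.052, and OGDH was farther from it, at -0.12. SUCLG1 stood at -0.26 without WT library 1 and -0.080 without WT library 2.

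In 5% O2, no member passed the test either. This comparison shares the untreated KO libraries with those of KO against WT and of NAC against KO. It asks where KO cells at 5% O2 and at normal O2 differ. The labels give the time in culture of neither group, so a difference in it cannot be told apart from one in O2. By edgeR, 0 members were higher, where 3.68% of all tested genes were, and 0 were lower, where 4.13% were. At an unadjusted p under 0.05, 2 members were higher and 1 was lower, beside 1971 and 1970 of the 15916 tested genes. DESeq2 called the same numbers of members, beside 2097 genes in both directions together. SUCLG1 had a log2 fold change of 0.31 (SE 0.11, adjusted p = 0.0949), FH of 0.27 (SE 0.09, adjusted p = 0.0915) and OGDH of -0.27 (SE 0.09, adjusted p = 0.0864). Both libraries at 5% O2 were above both KO libraries for SUCLG1 and FH and below them for OGDH. This separation comes from the same libraries as the p-values and is no added support. The remaining values were 0.21 for SUCLA2, 0.12 for PDHA1, 0.085 for MDH2, 0.080 for IDH2, -0.047 for CS and -0.16 for IDH3A. The median of the members was 0.085, beside -0.00025 over all tested genes.

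SUCLG1, FH and OGDH were called at 5% O2 by DESeq2 (adjusted p = 0.0452, 0.0420 and 0.0381), with only the 4 libraries compared (0.0303, 0.0329 and 0.0299), and without KO NAC library 1 (0.0421, 0.0354 and 0.0315) or 2 (0.0422, 0.0373 and 0.0334), and in no other of the 16 alternatives, where the adjusted p reached 0.531, 0.740 and 0.746. With the length and GC trend removed, SUCLG1, FH and OGDH stood at 0.13, 0.073 and -0.068, and SUCLA2 turned to -0.073.

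With all libraries in the fit, transcripts of 7 of the 9 enzymes changed with NAC, in both directions. Of these 7 calls, 3 (SUCLG1, IDH2 and CS) outlasted removal of the GC and length trend, after which FH was at 0.16 (adjusted p = 0.187) and IDH3A at 0.17 (adjusted p = 0.274). The comparison, with the same untreated KO libraries, asks where KO cells with and without the antioxidant differ. The paper describes further passages with NAC and the vehicle DMSO as control, and the labels name neither passage nor DMSO. A difference in passage, vehicle or preparation therefore cannot be told apart from one due to NAC. By edgeR, 5 members rose with NAC, where 23.8% of all tested genes did, and 2 fell, where 20.8% did. A large part of all tested genes thus differed, in both directions, between the KO libraries with and without NAC. The median of the members was 0.31, beside 0.023 over all tested genes. SUCLG1 rose the most, by a log2 fold change of 0.76 (SE 0.11, adjusted p = 0.000161), which is 1.69-fold. FH rose by 0.66 (SE 0.09, adjusted p = 0.000149), and SUCLA2, the partner of SUCLG1, by 0.66 (SE 0.11, adjusted p = 0.000554), each 1.58-fold. IDH2, which yields NADPH in mitochondria, rose by 0.38 (SE 0.09, adjusted p = 0.00440). IDH3A rose by 0.31 (SE 0.11, adjusted p = 0.0429). In each of these genes both NAC libraries were above both KO libraries. As the genes were picked by their calls on the same libraries, this separation is no added support.

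OGDH and CS moved the other way. OGDH had a log2 fold change of -0.43 (SE 0.09, adjusted p = 0.00194) and CS of -0.29 (SE 0.09, adjusted p = 0.0162). Both NAC libraries lay below both KO libraries for each gene, which again adds no support to calls made on the same libraries. The transcripts of SUCLA2 and OGDH, whose enzyme makes the substrate of succinyl-CoA synthetase, thus moved in opposite directions, but SUCLA2 stood at -0.095 and OGDH at 0.011, both without a call, after removal of the GC and length trend described further on. MDH2 and PDHA1 did not pass the test, at 0.14 (SE 0.08, adjusted p = 0.165) and -0.12 (SE 0.10, adjusted p = 0.396).

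Most of these changes were present without KO NAC library 1, the library with fibroblast markers, where 4 members rose beside 21.2% of 16422 tested genes and 3 fell beside 19.7%. SUCLG1 was then at 0.82 (adjusted p = 8.1e-05), FH at 0.73 (5.4e-05), SUCLA2 at 0.48 (0.00154) and IDH2 at 0.37 (0.00985). OGDH was at -0.37 (adjusted p = 0.00749) and CS at -0.33 (0.0177). PDHA1, which did not pass with all libraries, was lower at -0.28 (adjusted p = 0.0352), and at 0.025 without KO NAC library 2 in place of library 1. IDH3A was no longer called, at 0.29 (adjusted p = 0.0920), and MDH2 was at 0.11 (adjusted p = 0.372). The median of the members was 0.29.

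The call of IDH3A held in 3 of 16 alternatives, and among single libraries left out only without KO NAC library 2 (adjusted p = 0.0468), the others giving 0.0536 to 0.170 and all alternatives 0.0450 to 0.318. CS lost its call without KO library 1 (-0.28, adjusted p = 0.103) or KO library 2 (-0.31, adjusted p = 0.0712), and IDH2 lost its call without KO library 2 (0.34, adjusted p = 0.0559), while the ranges over 16 alternatives were 0.00245 to 0.103 for CS and 0.000668 to 0.0559 for IDH2.

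**Figure D3:**
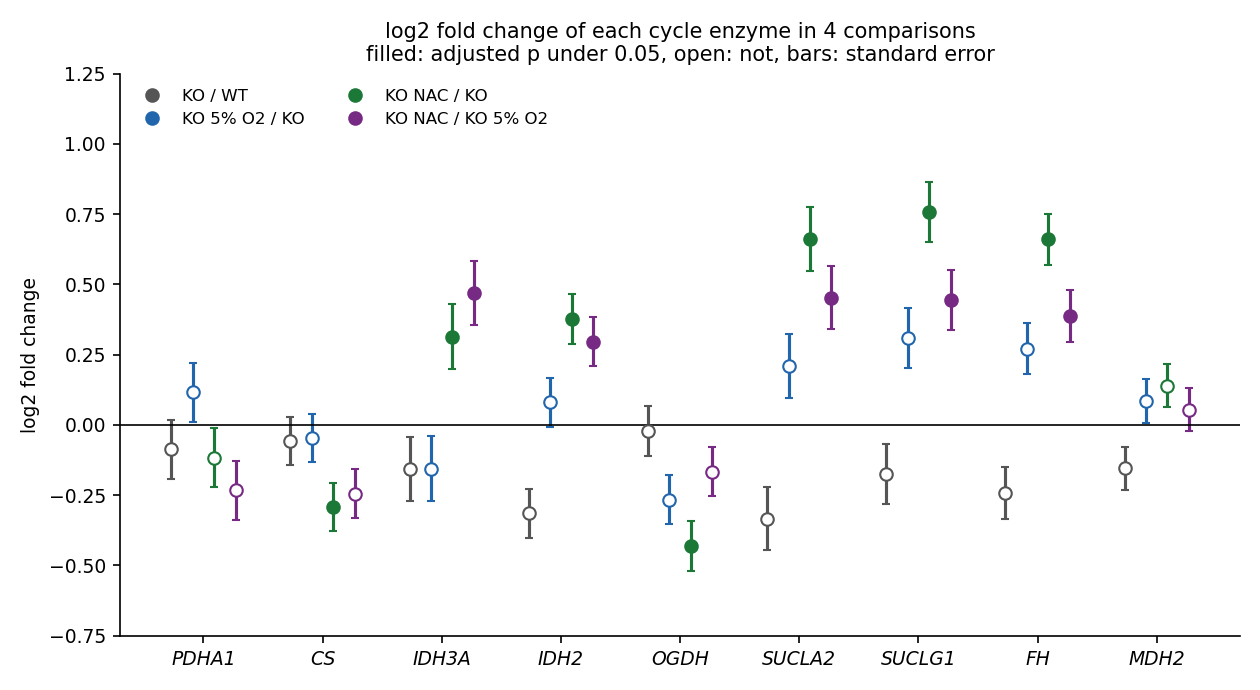
Log2 fold changes of the 9 enzymes in the 4 comparisons, with the standard error as bars, filled where the adjusted p was under 0.05 and open elsewhere. No point of KO against WT or of 5% O2 against KO is filled, and SUCLG1, SUCLA2 and FH have the highest values with NAC, at 0.76, 0.66 and 0.66.

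NAC and 5% O2 were compared directly in KO cells, which asks where the 2 treatments differ. The labels give the duration of neither treatment, and the paper describes the time at 5% O2 before RNA sequencing in different ways in its text and a legend. A difference in duration therefore cannot be told apart from one between the treatments. By edgeR, 5 members were higher with NAC than at 5% O2, where 15.5% of all tested genes were, and 0 were lower, where 13.6% were. At an unadjusted p under 0.05, 5 members were higher and 2 were lower, beside 3500 and 2965 of the 15916 tested genes. DESeq2 called 5 members higher and 1, CS, lower, beside 4802 genes in both directions together. IDH3A was higher with NAC by a log2 fold change of 0.47 (SE 0.12, adjusted p = 0.0108), SUCLA2 by 0.45 (SE 0.11, adjusted p = 0.0113), and SUCLG1 by 0.45 (SE 0.11, adjusted p = 0.00929). FH was higher by 0.39 (SE 0.09, adjusted p = 0.00888) and IDH2 by 0.30 (SE 0.09, adjusted p = 0.0259). In these 5 genes, picked by their calls on the same libraries, both NAC libraries were above both libraries at 5% O2, which is no added support. The other members were at -0.24 for CS (adjusted p = 0.0531), -0.23 for PDHA1 (0.117), -0.17 for OGDH (0.184) and 0.055 for MDH2 (0.638). The median was 0.30.

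IDH3A, SUCLG1 and FH stayed higher with NAC than at 5% O2 without KO NAC library 1, at 0.45, 0.51 and 0.46 (adjusted p = 0.0227, 0.00609 and 0.00422). SUCLA2 and IDH2 did not pass without that library, at 0.27 and 0.29 (adjusted p = 0.0615 and 0.0523), and PDHA1 was lower at -0.40 (adjusted p = 0.0101), so that 3 members were higher beside 13.4% of tested genes and 1 was lower beside 12.8%. CS, OGDH and MDH2 were at -0.28, -0.10 and 0.022 without that library, none of them called, and the median was 0.27. Leaving out the 5% O2 library 2 left 0 of the 9 members called, with IDH3A at 0.41 (adjusted p = 0.103), SUCLA2 at 0.41 (0.117), SUCLG1 at 0.35 (0.119), FH at 0.31 (0.111) and IDH2 at 0.30 (0.125). IDH2 was called in 9 of the 16 alternatives and also lost its call without the 5% O2 library 1 (0.29, adjusted p = 0.106), WT library 2 (0.27, 0.0538), KO library 1 (0.29, 0.0536) or KO library 2 (0.29, 0.0531). With only the 4 libraries compared, IDH2 at 0.26 (adjusted p = 0.0968) and IDH3A at 0.43 (adjusted p = 0.0632) were not called, and over the 16 alternatives the adjusted p ran from 0.00816 to 0.103 for IDH3A, 0.00666 to 0.125 for IDH2, 0.000249 to 0.908 for SUCLA2, 0.000723 to 0.210 for SUCLG1 and 0.00178 to 0.554 for FH.

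GC content of the transcript moved with the fold changes. Across 15022 tested genes with a known transcript, which are 94.4% of those tested, Spearman's correlation between GC content and the log2 fold change of NAC against KO was -0.50, and that of transcript length was -0.26. The corresponding values were -0.34 and -0.25 for 5% O2 against KO, 0.14 and 0.23 for KO against WT, and -0.41 and -0.17 for NAC against 5% O2. These points are genes measured in the same libraries and are not independent replicates. With NAC, the median log2 fold change was 0.52 over 2414 genes of up to 40% GC, 0.29 over 3070 genes of 40 to 45%, 0.052 over 2474 genes of 45 to 50%, -0.15 over 2232 genes of 50 to 55%, and -0.36 over 4832 genes above 55%.

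The members fell on this slope to unequal degrees. SUCLA2 has the lowest GC content of them at 38.4%, FH has 43.6% and IDH3A 43.4%, while PDHA1 has 46.2%, SUCLG1 46.9%, CS 48.4%, MDH2 52.1%, IDH2 55.5% and OGDH 56.3%. SUCLA2, IDH3A and OGDH had NAC values of 0.66, 0.31 and -0.43, next to medians of 0.52, 0.29 and -0.36 for genes of like GC content. SUCLG1 at 0.76, IDH2 at 0.38, FH at 0.66 and CS at -0.29 lay farther from the medians of their bands, which were 0.052, -0.36, 0.29 and 0.052.

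A smooth trend with the GC content and length of transcripts was fitted in each library and removed. After this, 2 members were higher with NAC, beside 14.6% of tested genes, and 1 was lower, beside 10.5%. IDH2 then rose by 0.57 (SE 0.08, adjusted p = 0.000668), SUCLG1 rose by 0.33 (SE 0.09, adjusted p = 0.0282), and CS was at -0.34 (SE 0.08, adjusted p = 0.0100). FH was at 0.16 (adjusted p = 0.187) and IDH3A at 0.17 (adjusted p = 0.274). SUCLA2 turned to -0.095 (adjusted p = 0.531) and OGDH to 0.011 (adjusted p = 0.941). The median of the members was 0.12, beside 0.027 over all tested genes. Against 5% O2, with the trend removed, IDH2 at 0.41 (adjusted p = 0.00666) and IDH3A at 0.36 (adjusted p = 0.0420) were higher with NAC and CS at -0.27 (adjusted p = 0.0415) was lower, while SUCLG1 was at 0.19 (adjusted p = 0.190), FH at 0.088 (adjusted p = 0.513), SUCLA2 at -0.022 (adjusted p = 0.908) and OGDH at 0.079 (adjusted p = 0.526). Whether this trend arose in the cells or in the preparation of the libraries was not tested.

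**Figure D4:**
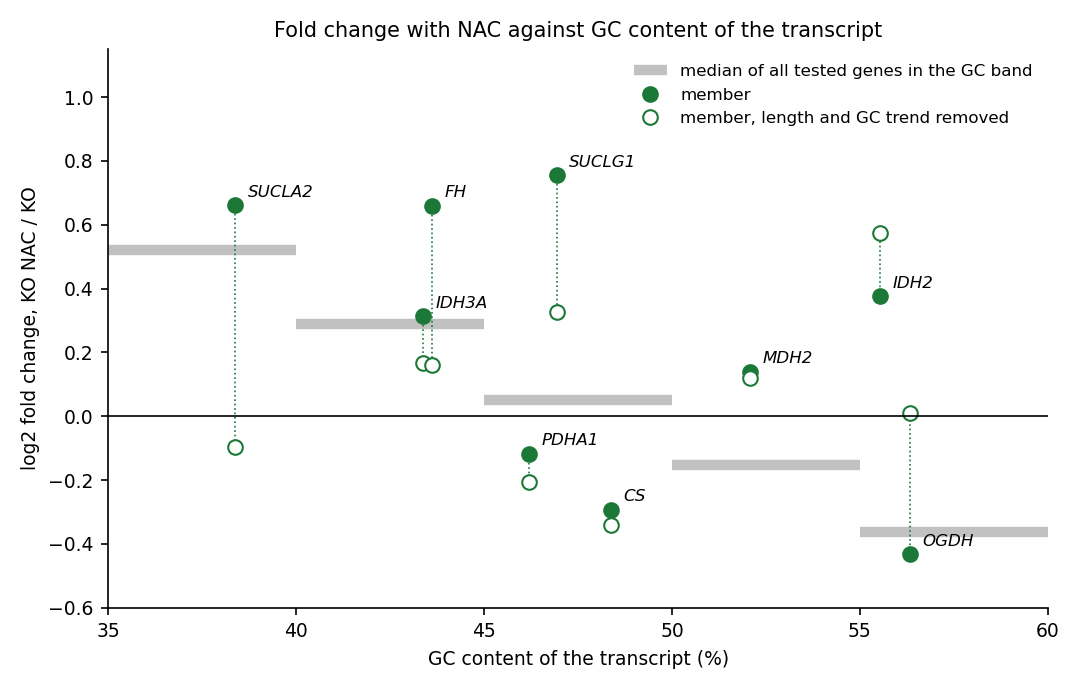
Log2 fold change with NAC against GC content of the transcript for the 9 enzymes, filled as measured and open after removal of the GC and length trend, with grey bars for the median of all tested genes in each band of GC content. SUCLA2 moves from 0.66 to -0.095 and OGDH from -0.43 to 0.011, while IDH2 moves from 0.38 to 0.57 and CS from -0.29 to -0.34.

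Sequence shared with other loci differed among the members. Of the 31-base words in the CS transcript, 51.7% also occur elsewhere on the primary chromosomes of hg38. The share was 24.1% for SUCLA2, 11.9% for FH, 9.74% for IDH2 and 6.27% for IDH3A, and below these for PDHA1 at 2.44%, SUCLG1 at 1.53%, OGDH at 0.31% and MDH2 at 0. The part of shared sequence in the levels and fold changes of CS and SUCLA2 was not tested.

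Among the other 13 subunits and enzymes of the cycle, most calls came with NAC. By edgeR, 0 of 13 were higher in KO than in WT, beside 1.34% of all tested genes, and 0 were lower, beside 0.622%. At an unadjusted p under 0.05, 0 were higher and 2 lower, beside 1512 and 1292 of the 15916 tested genes. All 13 values were below 0, beside 8028 of the 15916 tested genes. Their median was -0.17, or -0.093 after removal of the GC and length trend. At 5% O2, where 3.68% of all tested genes rose, PDHB, the beta subunit that pairs with PDHA1, was the gene of the 13 that rose, by 0.35 (SE 0.10, adjusted p = 0.0480). At an unadjusted p under 0.05, 9 of the 13 were higher at 5% O2 and 0 lower, beside 1971 and 1970 of the 15916 tested genes. Of the 13 values, 12 were above 0, beside 7948 of the 15916 tested genes, and the median was 0.24, or 0.075 after removal of the trend. The call of PDHB was made in 2 of the 8 fits that left out a library, and PDHB stood at 0.15 after removal of the GC and length trend. With NAC, 10 of 13 rose, beside 23.8% of all tested genes, and 0 fell, beside 20.8%. At an unadjusted p under 0.05, 0 of the 13 were lower too, beside 3836 of the 15916 tested genes. Their median was 0.52, beside 0.023 over all tested genes. Without KO NAC library 1, 8 of 13 rose, beside 21.2% of all tested genes, with a median of 0.39, and after removal of the GC and length trend 3 of 13 rose, beside 14.6%, with a median of 0.16. Most of these calls with NAC thus did not outlast removal of the trend.

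Succinate dehydrogenase, or complex II, which takes up the succinate made by the enzyme of SUCLG1, was called in all 4 subunits with NAC when all libraries were in the fit (adjusted p = 4.7e-05 for SDHD, 6.3e-05 for SDHB, 0.000125 for SDHC and 0.0132 for SDHA). With all libraries, without KO NAC library 1 and after removal of the trend, SDHD was at 0.91, 0.87 and 0.085, SDHB at 0.85, 0.73 and 0.31, SDHC at 0.63, 0.67 and 0.21, and SDHA at 0.30, 0.23 and 0.39. SDHA lost its call without KO NAC library 1 (adjusted p = 0.0596), and SDHD and SDHC lost theirs after removal of the trend (adjusted p = 0.443 and 0.0656). Of their 31-base words, 75.3% in SDHC, 66.6% in SDHD and 42.3% in SDHA also occur elsewhere on the primary chromosomes, and the part of this in their values was not tested. In the same order of fits, SUCLG2, the beta subunit of the GTP-forming succinyl-CoA synthetase, was at 0.79, 0.81 and 0.26, and DLD, the dehydrogenase shared by both large complexes, at 0.71, 0.68 and 0.16. PDHX was at 0.54, 0.39 and 0.010, PDHB at 0.52, 0.41 and 0.0023, DLAT at 0.32, 0.36 and -0.035, and IDH3B at 0.28, 0.15 and 0.23. Of these 6 genes, SUCLG2 alone was called after removal of the trend, and IDH3B, not called without KO NAC library 1 (adjusted p = 0.206), was called in 2 of the 8 fits that left out a library. At 5% O2, SDHD, SDHB, SDHC and SDHA were at 0.31, 0.26, 0.27 and 0.12, none of them called (adjusted p = 0.0896, 0.144, 0.0743 and 0.432), and SDHD turned to -0.0053 after removal of the trend.

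Among the kinases and phosphatases of pyruvate dehydrogenase, the kinase genes PDK1 and PDK3 were called with all libraries in the fit, and no phosphatase gene was. PDK1, which phosphorylates and inactivates the subunit encoded by PDHA1, had 515 and 642 counts in WT, 453 and 472 in KO, 4197 and 2945 in KO at 5% O2, and 1403 and 519 in KO with NAC. The libraries at 5% O2 were far above the rest, and the NAC libraries disagreed with each other, library 1 being the higher. PDK1 rose at 5% O2 by a log2 fold change of 3.04 (SE 0.26, adjusted p = 0.000143), which is 8.20-fold, and with NAC by 1.19 (SE 0.25, adjusted p = 0.00232), or by 0.54 without KO NAC library 1 (adjusted p = 0.00393) and 1.63 without KO NAC library 2. PDK3 rose at 5% O2 by 0.43 (SE 0.10, adjusted p = 0.0297), a call made in 3 of the 8 fits that left out a library and lost after removal of the GC and length trend, at 0.26 (adjusted p = 0.182). With NAC, PDK3 was lower at -0.43 (SE 0.10, adjusted p = 0.00457), at -0.52 without KO NAC library 1 and at -0.85 after removal of the trend. With NAC relative to 5% O2, PDK1 was lower at -1.85 (adjusted p = 0.000575) and PDK3 at -0.86 (adjusted p = 0.000389), and without KO NAC library 1 they were at -2.49 and -0.95. PDK2 was at 0.41 in that comparison without a call, and at 0.41 without KO NAC library 1. After removal of the trend, PDK2 was higher with NAC than at 5% O2, at 0.66 (adjusted p = 0.0230). In all, 2 of the 6 tested genes of this list rose at 5% O2, beside 3.68% of all tested genes, 1 rose with NAC, beside 23.8%, and 1 fell with NAC, beside 20.8%. None was called in KO against WT by edgeR, beside 1.34% of all tested genes higher and 0.622% lower. There, 0 had an unadjusted p under 0.05, beside 1512 genes higher and 1292 lower of the 15916 tested. PDK4, with at most 12 counts in a library, was not tested. PDHA1 had no call in these comparisons with all libraries in the fit.

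Of 12 carriers and enzymes at the entry and exit of the cycle, 6 rose with NAC, beside 23.8% of all tested genes, and 1 fell, beside 20.8%. Without KO NAC library 1, 5 rose, beside 21.2%, and 1 fell, beside 19.7%, and after removal of the GC and length trend 3 rose, beside 14.6%, and 0 fell, beside 10.5%. The median was 0.47, 0.29 and 0.15 in these 3 fits. In the same order, GLUD1, glutamate dehydrogenase, was at 0.66, 0.58 and 0.49, ME2, a mitochondrial malic enzyme, at 0.50, 0.40 and 0.48, and SLC25A11, the carrier of alpha-ketoglutarate and malate, at 0.45, 0.41 and 0.57. These 3 genes were called in each fit. MPC1 and MPC2, which form the mitochondrial pyruvate carrier, were called in the first fits, at 0.76 and 0.87 for MPC1 and 0.58 and 0.63 for MPC2, but not after removal of the trend, at -0.051 and 0.10. PC, pyruvate carboxylase, was lower at -0.53 and -0.36 (adjusted p = 0.00842 and 0.0495) and turned to 0.079 after removal of the trend. At 5% O2, where 3.68% of all tested genes rose, GLUD1 was the gene of the 12 that did, by 0.32 (SE 0.09, adjusted p = 0.0474), a call made in 2 of the 8 fits that left out a library and lost after removal of the trend, at 0.26 (adjusted p = 0.101).

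Of 5 cytosolic counterparts, 3 rose with NAC, beside 23.8% of all tested genes, and 4 rose after removal of the GC and length trend, beside 14.6%, 1 of them a gene without a call before. With all libraries, without KO NAC library 1 and after removal of the GC and length trend, MDH1 was at 0.99, 1.05 and 0.36, IDH1 at 0.72, 0.71 and 0.22, and GOT1, the aspartate aminotransferase, at 0.52, 0.44 and 0.33. All 3 were called in each fit, although MDH1 and IDH1 were much nearer 0 in the last. MDH2, the mitochondrial relative of MDH1, stood at 0.14 without a call, but the difference between them was not tested. IDH1, which makes NADPH in the cytosol, was the gene of the 5 that rose at 5% O2, beside 3.68% of all tested genes, by 0.38 (adjusted p = 0.0207), a call made in 4 of the 8 fits that left out a library and lost after removal of the trend, at 0.18 (adjusted p = 0.195). Of the 3 genes for attaching lipoate, the cofactor of the pyruvate and alpha-ketoglutarate dehydrogenases, LIAS rose with NAC by 0.60, by 0.56 without KO NAC library 1 and by 0.41 after removal of the trend. By edgeR, 0 of 12 entry and exit genes, 0 of 5 cytosolic genes and 0 of 3 lipoylation genes were called in KO against WT, beside 1.34% of all tested genes higher and 0.622% lower. Of these lists 3, 2 and 0 were lower at an unadjusted p under 0.05, beside 1292 of the 15916 tested genes.

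**Figure D5:**
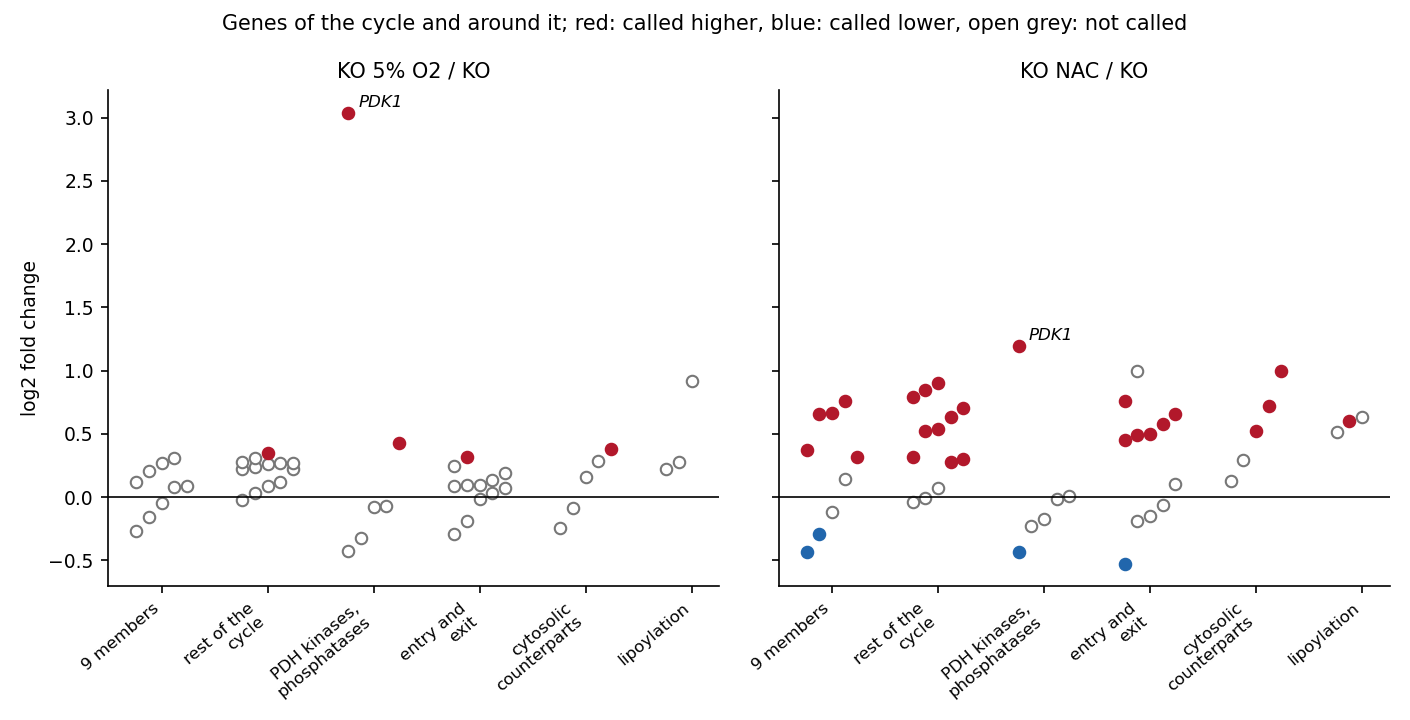
Log2 fold changes at 5% O2 (left) and with NAC (right) against untreated KO for the 9 enzymes and 5 lists around them, each point a gene, red where it was higher and blue where it was lower at an adjusted p under 0.05, and open grey elsewhere. PDK1 stands highest in both panels, at 3.04 and 1.19, and 10 of the 13 other genes of the cycle are red with NAC.

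With NAC relative to 5% O2, 5 of the 13 other cycle genes were higher, beside 15.5% of all tested genes, and 0 were lower by edgeR, beside 13.6%. At an unadjusted p under 0.05, 1 of the 13 was lower, beside 2965 of the 15916 tested genes. Without KO NAC library 1 the same 5 were higher, beside 13.4%, and after removal of the GC and length trend 2 were, beside 7.52%. In these 3 fits SDHD was at 0.60, 0.56 and 0.090, SDHB at 0.59, 0.47 and 0.28, SUCLG2 at 0.51, 0.53 and 0.18, DLD at 0.49, 0.46 and 0.12, and SDHC at 0.36, 0.39 and 0.11. SDHB was the gene of these 5 that was called in each fit. Of the 12 entry and exit genes, 4 were higher, beside 15.5%, and 1, ACLY, was lower, beside 13.6%, at -0.24 (adjusted p = 0.0411), and ACLY was not called without KO NAC library 1, at -0.18 (adjusted p = 0.163). Without that library 3 were higher, beside 13.4%, 1 of them not called before, and after removal of the trend 2 were higher, beside 7.52%, neither of them among the first 4. Of the 5 cytosolic genes, 4 were higher, beside 15.5% of all tested genes, and the same 4 without KO NAC library 1. In the 3 fits MDH1 was at 0.71, 0.76 and 0.32, GOT1 at 0.36, 0.29 and 0.26, IDH1 at 0.35, 0.33 and 0.037, and ME1 at 0.54, 0.58 and 0.22. After removal of the trend 3 of the 5 were higher, beside 7.52%, namely MDH1, GOT1 and a gene not called before, and ME1 was called in 3 of the 8 fits that left out a library.

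The members did not share a single pattern over the 8 libraries. Pearson's correlation of log2 CPM over these libraries, which fall into 4 groups and share their depth and base composition, was 0.97 between SUCLG1 and FH, 0.85 between CS and OGDH, and -0.92 between CS and SUCLG1. The mean of the members' standardised log2 CPM was 0.40 and 0.42 in WT, -0.49 and -0.61 in KO, -0.24 and -0.21 in KO at 5% O2, and 0.55 and 0.18 in KO with NAC. KO was lowest, WT and NAC were highest, and the NAC libraries lay on either side of WT. The genes outside all lists with the highest correlation to this mean were B3GNT2 at 0.99, OCIAD2 at 0.99, PA2G4P4 at 0.99, ACSM3 at 0.96 and ACOT8 at 0.95 (Pearson's r, n = 8 libraries), given as a description.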

How the data were processed

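RNA of WT and UBQLN1 KO WA26 hESCs was sequenced as Illumina libraries. Reads were quality checked with FastQC 0.11.9, trimmed with trim-galore and mapped to hg38 (HISAT2) by the authors, who summed them per gene symbol in featureCounts. The deposited values are raw counts. Which annotation served for this is not named in the sources used. Library totals ran from 31236968 to 41639350 counts.

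Genes were filtered with filterByExpr (minimum count 10), scaled by TMM and compared in edgeR 4.0.16 (quasi-likelihood, R 4.3.3), with 1 term per group over all 8 libraries, no block and 4 residual degrees of freedom. The biological coefficient of variation was 13.7%. P-values are two-sided, adjusted by Benjamini-Hochberg over the 15916 tested genes, and called under 0.05. The SE was taken from the log2 fold change and its F statistic, as the ratio of its size to the root of F. CPM use TMM library sizes, log2 CPM a prior count of 2, and RPKM the canonical transcript of GENCODE v44. Groups follow the labels. The counts table has 8 library columns, all of them used, and the 4 treated WT samples of the labels are not analysed here.

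The members and lists were chosen with earlier results of these data known. Named are all members, UBQLN1, every gene of the pathway lists called at least once, the most abundant and the absent markers, and the 5 genes most correlated with the mean of the members among genes with a mean log2 CPM of at least 1. Markers in KO NAC library 1 and the motifs were chosen after the values were seen.

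Alternatives were DESeq2 1.42.0, RLE size factors, other filters, a replicate block, only the libraries compared, each library left out, a trend on length and GC content removed with mgcv 1.9.3, and calls by a log2 fold change over 1 with an unadjusted p under 0.05. The computations were tested on simulated data.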

Additional observations from a re-analysis of the deposited data

How the results depend on the processing

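With 16 alternatives per gene result, 120 of the NAC values of members kept their result, 1 was stronger, 18 were weaker and 5 turned direction, and for NAC against 5% O2 these numbers were 113, 9, 18 and 4, while for KO against WT 134 were kept, 7 were stronger and 3 turned direction, and for 5% O2 against KO 130, 12 and 2. Direction turned in KO against WT for CS without WT library 1 (0.034) and for OGDH without WT library 1 (0.0096) or KO library 2 (0.0081), OGDH running from -0.050 to 0.0096 with a library left out. With NAC it turned for PDHA1 without KO NAC library 2 (0.025, and -0.28 without library 1) and, with the length and GC trend removed and with a block added to that, for OGDH (0.011 and 0.010), SUCLA2 (-0.095 and -0.098), DLAT (-0.035 and -0.035), MPC1 (-0.051 and -0.050) and PC (0.079 and 0.077). It turned in the same alternatives for SUCLA2 at 5% O2 (-0.073 and -0.070), and for OGDH (0.079 and 0.079) and SUCLA2 (-0.022 and -0.028) in NAC against 5% O2, where UBQLN1 turned without KO NAC library 1 (-0.018). Of values printed but not carried through all alternatives, removal of the trend turned TDGF1 (-0.24) and PODXL (0.33) with NAC and SDHD at 5% O2 (-0.0053). The 312 genes called in KO against WT became 841 by DESeq2, 1252 with no filter, 1124 with only the 4 libraries compared, 64 to 1311 with a library left out, 189 with the trend removed and 170 with block and trend. There, 0 members lower became 1 by DESeq2, 1 with no filter, 1 with only the 4 libraries and 0 to 2 with a library left out, and the median of -0.16 became -0.19 to -0.14 with a library left out, -0.12 with the trend removed and -0.12 with block and trend. With NAC, 7100 genes became 4000 with the trend removed, 3781 with block and trend and 1435 by fold change over 2 and unadjusted p. There, 5 members higher became 3 to 5 with a library left out, 2, 2 and 0 in those 3 alternatives, 2 members lower became 1 to 3, 1, 1 and 0, and the median of 0.31 became 0.28 to 0.33 with a library left out, 0.12 and 0.12. At 5% O2, 1243 genes became 2097 by DESeq2, 2220 with no filter, 3009 with only the 4 libraries, 36 to 2763 with a library left out, 322 with the trend removed, 231 with block and trend and 321 by fold change. There, 0 members higher became 2 by DESeq2, 2 with only the 4 libraries and 0 to 2 with a library left out, 0 lower became 1, 1 and 0 to 1, and the median of 0.085 became 0.062 to 0.12 with a library left out. For NAC against 5% O2, 4635 genes became 3050 with only the 4 libraries, 1354 to 5468 with a library left out, 2449 with the trend removed, 2208 with block and trend and 703 by fold change. There, 5 members higher became 3, 0 to 5, 2, 1 and 0 in these, 0 lower became 1 by DESeq2, RLE size factors, no filter, at least 10 counts in every library, the block or the trend removed and 0 to 1 with a library left out, and the median of 0.30 became 0.26 with only the 4 libraries, 0.27 to 0.30 with a library left out, 0.079 with the trend removed and 0.079 with block and trend. The block joins libraries of equal number, a pairing that the values did not show (correlations of -0.0226 to 0.0816 between groups). The cause of each changed result was not tested.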

Other observations

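Single markers of hESCs changed with NAC, and were picked after the values were known. With all libraries in the fit, their shares were near those of all tested genes. In the other fits given here the shares lay farther above those of all tested genes, a difference that was not tested. DNMT3B fell, with a log2 fold change of -0.97 (adjusted p = 2.7e-05), from 2553 and 2455 CPM in KO to 1136 and 1418 CPM with NAC, and was at -0.82 without KO NAC library 1 and -0.60 after removal of the GC and length trend. NANOG was lower too, at -0.31 (adjusted p = 0.0142), and at -0.40 and -0.28 in those fits. DPPA4, a chromatin protein of pluripotent cells, rose by 0.70 (adjusted p = 4.6e-05), or by 0.65 and 0.24 in those fits, and ZFP42 by 0.61 (adjusted p = 0.000171), or by 0.64 and 0.30. TDGF1, a co-receptor of NODAL, was higher at 0.26 with all libraries and at 0.26 without KO NAC library 1 (adjusted p = 0.0140 and 0.0311), but lower at -0.24 after removal of the trend (adjusted p = 0.0168). With all libraries 3 of the 9 markers rose, beside 23.8% of all tested genes, and 2 fell, beside 20.8%. Without KO NAC library 1, 3 rose, beside 21.2%, and 4 fell, beside 19.7%, the added genes being POU5F1 at -0.40 (adjusted p = 0.0425) and PODXL at -0.27 (adjusted p = 0.0328), which with all libraries were at -0.047 and -0.11 without a call. After removal of the trend 3 rose, beside 14.6%, and 3 fell, beside 10.5%, and PODXL was then higher at 0.33 (adjusted p = 0.0210).

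Small counts were even more often than odd. Between 66.6% and 70.7% of counts from 1 to 20 were even numbers in the 8 libraries, against 49.5% to 51.5% of large counts. Whether each count stands for an independent read was not tested, which limits every printed count and the chi-square between libraries.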
